A study of Homo sapiens with 6 samples.

Results

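The transcripts followed were those of high mobility group (HMG) chromatin proteins, of lamins and of the lamin B receptor LBR. The HMG genes were HMGA1, HMGA2, HMGB1, HMGB2 and HMGB3, and the lamin genes were LMNA, LMNB1 and LMNB2. They were measured in Ras-induced human lung fibroblasts with and without depletion of the long noncoding RNA sin-lncRNA. Whether these cells had reached senescence was not tested here. The 9 genes were chosen by name, as chromatin and nuclear envelope genes linked to senescence, from 57819 genes in the table. All 9 had enough reads to be tested. The cells were IMR90 human fetal lung fibroblasts carrying ER:Ras. ER:Ras is a Ras oncogene joined to an estrogen receptor domain that 4-hydroxytamoxifen (4OHT) switches on. Controls were IMR90 ER:Ras cells given 4OHT and a scrambled siRNA (siSCR, n = 3 libraries), and the knockdown group were IMR90 ER:Ras cells given 4OHT and an siRNA against sin-lncRNA (n = 3 libraries). Every library came from cells held in 200 nM 4OHT for 3 days, so both groups were Ras-induced and no comparison with uninduced cells was made here. The labels do not say whether the replicates were separate cultures, and p-values measure the spread between these libraries, which may be technical.

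HMGA proteins bind the minor groove of A/T-rich DNA through short AT-hook motifs. HMGB proteins bend DNA through HMG boxes, and HMGB1 also acts outside the cell as an alarm signal. Lamins form the meshwork under the inner nuclear membrane, and LBR ties B-type lamins and heterochromatin to that membrane. In fibroblasts driven into senescence by Ras, loss of lamin B1, HMGB2 and LBR and accumulation of HMGA proteins in condensed heterochromatin foci are textbook features.

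Values are reads per 1000000 (RPM): whole reads recovered from the deposited log2 values, divided by the effective library size. Total reads in genes ran from 30271192 to 50913672 in controls and from 22117324 to 27882280 in knockdowns, so all 3 knockdown libraries had fewer reads than any control. The targeted lncRNA stood at 3.70, 4.73 and 4.09 RPM in control replicates 1, 2 and 3 and at 0.493, 0.640 and 0.534 RPM in knockdown replicates 1, 2 and 3, or 13.3% of control. All 8 fibroblast markers examined were expressed, with summed levels of 40354 to 42174 RPM in controls and 40536 to 41980 RPM in knockdowns. In the test described below, 4 of the 8 were called higher and 4 lower in knockdowns. The shares over all genes tested were 17.5% and 23.5%. The similar sums thus do not mean that single markers were unchanged. Summed levels were 4.20 to 6.67 RPM in controls and 2.02 to 2.74 in knockdowns for 5 epithelial markers, with KRT5 at 0 throughout. For 3 endothelial markers they were 1.703 to 1.898 and 2.29 to 2.71 RPM, and for 4 leukocyte markers they were 0.0999 to 0.199 and 0.0896 to 0.356 RPM. The part of these low signals in any result was not tested. In such bulk samples, fewer cells of a kind and less RNA per cell cannot be told apart.

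Of the 9 genes, 5 changed in the knockdown (limma, Benjamini-Hochberg adjusted p under 0.05 over all genes tested). HMGA1, LMNA and LMNB2 fell, and HMGB1 and LBR rose. HMGA2, HMGB2, HMGB3 and LMNB1 did not pass the test. Across the 19048 genes tested, 41.0% passed the same test, 17.5% as higher and 23.5% as lower, so the count of 5 is read against a background where changes were common. The median log2 fold change was 0.03 over the 9 genes and -0.04 over all genes tested. HMGA1, LMNA, HMGB1 and LBR had no overlap between the groups, which also held for 51.1% of all genes tested. The count of 5 was 3 without knockdown replicate 1, and it was also 3 after correction for GC content and transcript length, which removed HMGB1 and LMNB2.

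**Figure D1:**
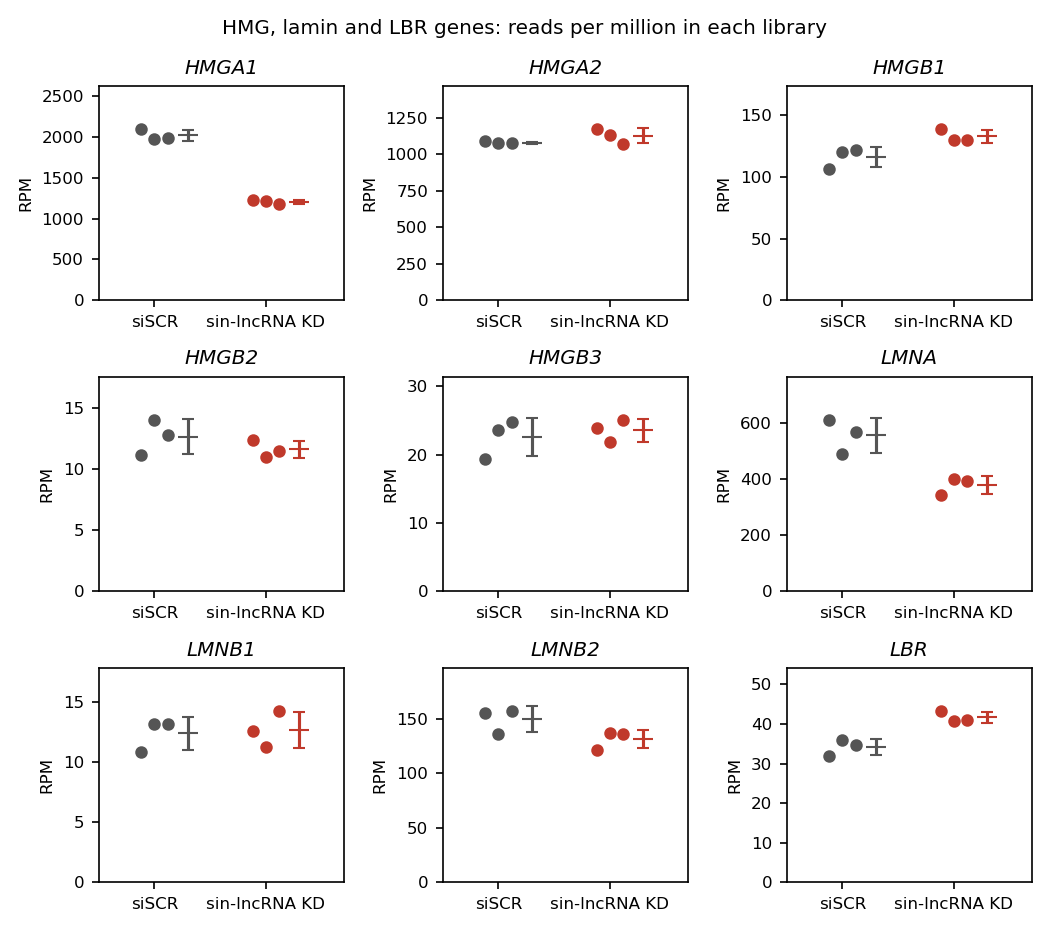
Reads per 1000000, RPM (vertical axes, starting at 0) of the 9 genes in the 3 siSCR (grey) and 3 sin-lncRNA knockdown (red) libraries. Points are libraries in replicate order, and the bar beside them is the mean with its SD. HMGA1 and LMNA are lower in every knockdown library, LBR and HMGB1 are higher in every one, and the other 5 genes overlap between groups.

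HMGA1 had the largest change of the group. This gene (ENSG00000137309.15, chromosome 6, 34204650 to 34214008, plus strand, in the table's hg19 coordinates) encodes an AT-hook protein that is abundant in embryonic and transformed cells. Its level was 2096, 1971 and 1985 RPM in control replicates 1, 2 and 3 and 1228, 1211 and 1178 RPM in knockdown replicates 1, 2 and 3. The groups were far apart, with replicates close together: 2017 ± 68 RPM in controls and 1206 ± 25 RPM in knockdowns (SD, n = 3), or 59.8% of control. The log2 fold change was -0.74 (SE 0.04; adjusted p = 5.0e-07, limma), and it ranked 669 of 19048 genes by size of fall. HMGA1 was also one of the most abundant transcripts in these cells, above 99.7% of the genes tested by mean level. It kept its call in all 21 alternative fits, with log2 fold changes from -0.76 to -0.58.

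HMGA2, the other AT-hook gene (ENSG00000149948.9, chromosome 12, 66217911 to 66360075, plus strand), did not follow it. Its level was 1087, 1073 and 1075 RPM in the controls and 1172, 1133 and 1070 RPM in the knockdowns, so that knockdown replicate 3 lay below all controls and the other 2 above them. The mean was 1078 ± 7 RPM in controls and 1125 ± 52 RPM in knockdowns (SD, n = 3). The log2 fold change was 0.06 (95% interval -0.03 to 0.16; adjusted p = 0.292, limma). A fall of the size seen in HMGA1 lies far outside that interval.

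HMGA2 made up more of the HMGA pair in every knockdown library. The log2 ratio of HMGA2 to HMGA1 reads was -0.95, -0.88 and -0.88 in control replicates 1, 2 and 3 and -0.07, -0.10 and -0.14 in the knockdowns. Every knockdown library lay above every control, by a mean of 0.80 on the log2 scale, a 1.74-fold higher ratio (exact permutation test, two-sided p = 0.1, the smallest that 3 libraries against 3 allow; 0.125 adjusted over the 5 ratios tested). After the GC and length correction the difference was 0.51. Per kilobase of annotated exon, HMGA1 made up 92.5% ± 0.2 of the family's RPKM in controls and 87.6% ± 0.3 in knockdowns (SD, n = 3). With the longest transcript as the length, the shares were 87.5% ± 0.3 and 80.1% ± 0.4. The family total was 936.9 ± 29.9 RPKM in controls and 591.3 ± 14.2 RPKM in knockdowns by exon length.

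**Figure D2:**
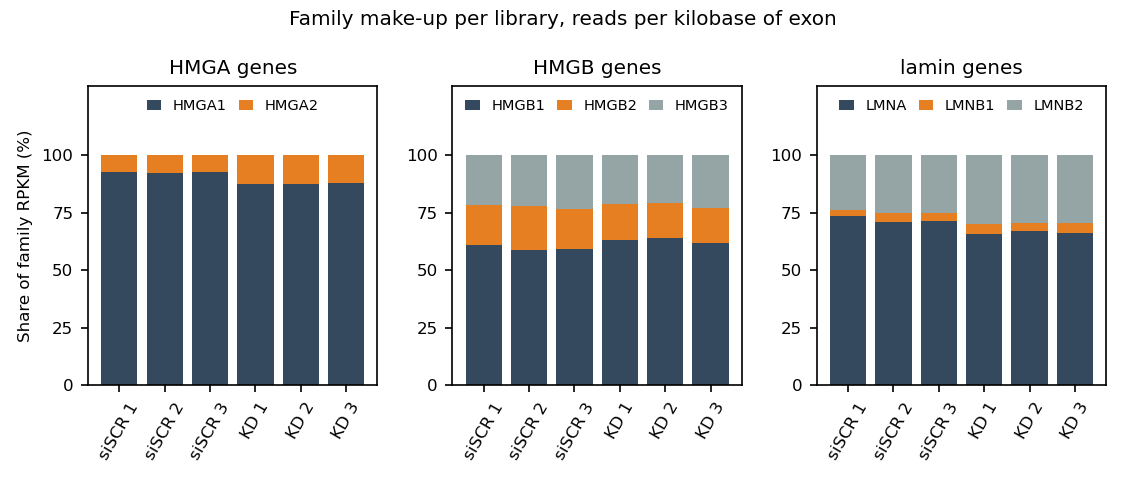
Share of each family's summed RPKM (percent, vertical axis; RPKM per kilobase of annotated exon) held by each gene in every library, as stacked bars. The HMGA1 share is near 92.5% in the siSCR bars and near 87.6% in the knockdown bars, and the LMNA share among lamins goes from about 72.0% to 66.2%.

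The promoter of HMGA1 is shown because this gene changed most. RefSeq (GRCh38.p14) lists promoter windows for 7 of the 9 genes, several with more than 1 start, and gene-level reads do not tell which start was used. Motifs were searched on both strands in the 250 bases before each start: GGGCGG (the GC box bound by Sp1), CCAAT (the box bound by NF-Y), TGANTCA (AP-1, the factor of Ras signalling) and TTTCCCGC or TTTGGCGC (E2F). The window before the first listed HMGA1 start holds 5 GC boxes, in capitals, which read GGGCGG on this strand or CCGCCC where the box lies on the other, and one pair stands back to back.

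HMGA1 (chr6:34236623-34236872, plus strand): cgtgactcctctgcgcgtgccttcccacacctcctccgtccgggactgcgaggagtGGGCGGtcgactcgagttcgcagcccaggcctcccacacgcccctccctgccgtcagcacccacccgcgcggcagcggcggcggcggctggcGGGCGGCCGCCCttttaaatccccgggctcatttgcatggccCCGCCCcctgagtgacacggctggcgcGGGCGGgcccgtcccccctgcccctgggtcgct

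This window is 74.8% G or C. At least 1 GC box occurs in 42.6% of all 35116 promoter windows of this length and at least 3 in 13.9%. No AP-1, CCAAT or E2F match was found in this HMGA1 window. The second listed HMGA1 start has 1 CCAAT box and no GC box. GC boxes were not particular to HMGA1. The second listed windows of HMGB1, HMGB3 and LMNB1 hold 9, 10 and 4 of them, and the remaining windows of the other members hold 0 to 2.

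HMGA2 is best known for repression by the let-7 microRNAs, whose sites lie in its 3′ UTR. The let-7a sequence is shown with its seed (bases 2 to 8) in capitals, above the 4 matches to that seed in the HMGA2 3′ UTR and the single match in HMGA1 (GENCODE 29, principal transcripts), with the 7 paired bases in capitals.

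let-7a-5p: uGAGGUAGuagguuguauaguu
HMGA2 site 1: gccaacgttcgatttCTACCTCa
HMGA2 site 2: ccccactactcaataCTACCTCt
HMGA2 site 3: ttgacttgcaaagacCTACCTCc
HMGA2 site 4: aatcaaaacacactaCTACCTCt
HMGA1 site: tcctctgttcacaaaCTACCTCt

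Of 12770 coding genes tested, 9.75% have at least 1 such match and 0.0705% have 4 or more. HMGB1, HMGB2, HMGB3 and all lamins have 0, and LBR has 1. Mature let-7 is not measured by polyA libraries. Of the other genes tied to this axis, LIN28A, which blocks let-7 maturation, had 0 reads in every library, and its relative LIN28B never exceeded 1 read in any of them. The floor that 0 reads allow is 3 reads, or 0.0596 to 0.134 RPM depending on the library, counting error only. The RNA-binding proteins IGF2BP1, IGF2BP2 and IGF2BP3, which are let-7 targets, did not pass the test, with log2 fold changes of 0.06, 0.11 and -0.10. After the GC and length correction IGF2BP3 passed it, at -0.16 (limma, adjusted p = 0.0057).

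Among the lamins, LMNA fell clearly, LMNB2 fell by an amount close to the threshold, and LMNB1 did not pass the test. LMNA (ENSG00000160789.15, chromosome 1, 156052364 to 156109880, plus strand) encodes lamins A and C, which gene-level reads do not separate. Its level was 612, 489 and 570 RPM in control replicates 1, 2 and 3 and 344, 401 and 393 RPM in knockdown replicates 1, 2 and 3. The lowest control lay above the highest knockdown library. The means were 557 ± 63 and 379 ± 31 RPM (SD, n = 3), and the difference was -0.55 on the log2 scale (SE 0.08; adjusted p = 0.00031, limma). With 1 library left out the value ran from -0.64 to -0.48, and the call held each time.

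LMNB2 (ENSG00000176619.6, chromosome 19, 2427636 to 2456994, minus strand) encodes a B-type lamin that stays attached to the membrane by its lipid tail. It stood at 156, 136 and 157 RPM in controls and 121, 137 and 136 RPM in knockdowns. Control replicate 2 fell among the knockdown libraries, so the groups overlapped. The log2 fold change was -0.19 (SE 0.07; adjusted p = 0.043, limma). This call was lost without control replicate 1 (-0.16, limma adjusted p = 0.116), control replicate 3 (-0.15, 0.167), knockdown replicate 1 (-0.13, 0.148) or knockdown replicate 3 (-0.21, 0.069). It was also lost when scaled to library totals (-0.17, limma adjusted p = 0.065) or by the median of ratios (-0.16, 0.059), and after the GC and length correction (-0.08, 0.142). The end of LMNB2 shares 257 bases with TIMM13 on the same strand, so part of its reads is uncertain.

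LMNB1 (ENSG00000113368.7, chromosome 5, 126112315 to 126172712, plus strand), whose loss is a widely used senescence marker, stood at 10.8, 13.2 and 13.2 RPM in controls and 12.6, 11.2 and 14.2 RPM in knockdowns. The groups overlapped, although control replicate 1 was the lowest of the 6 libraries and knockdown replicate 3 the highest. These values rest on 263 to 662 reads per library. The 95% interval of the log2 fold change, -0.20 to 0.27, covers changes of either sign up to about that size. Its direction turned with single libraries, to -0.059 without control replicate 1 and -0.053 without knockdown replicate 3.

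Both B-type lamins were higher relative to LMNA in the knockdowns. The log2 ratio of LMNB2 to LMNA reads was -1.97, -1.85 and -1.86 in the controls and -1.5002, -1.549 and -1.53 in the knockdowns, higher in every knockdown library. That of LMNB1 to LMNA was -5.82, -5.21 and -5.44 in the controls and -4.77, -5.16 and -4.78 in the knockdowns, again without overlap. The mean differences were 0.37 and 0.59 (exact permutation test, two-sided p = 0.1 each, 0.125 adjusted over the 5 ratios). Per kilobase of exon, LMNA held 72.0% ± 1.3 of lamin RPKM in controls and 66.2% ± 0.7 in knockdowns, LMNB2 held 24.9% ± 0.8 and 29.5% ± 0.3, and LMNB1 held 3.11% ± 0.59 and 4.27% ± 0.58 (SD, n = 3).

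The first listed LMNA window is shown for its single E2F match, TTTCCCGC, in capitals, near the start. It also holds 1 CCAAT box, in lower case, and 1 GC box on the other strand that overlaps the E2F match.

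LMNA (chr1:156082323-156082572, plus strand): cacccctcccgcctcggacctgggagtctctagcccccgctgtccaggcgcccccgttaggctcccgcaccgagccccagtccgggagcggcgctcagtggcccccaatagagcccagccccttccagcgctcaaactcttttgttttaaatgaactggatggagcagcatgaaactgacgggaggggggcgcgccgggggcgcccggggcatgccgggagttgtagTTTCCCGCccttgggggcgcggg

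An E2F match of these letters occurs in 1.93% of all promoter windows. None was found in the 250 bases before the listed starts of the other 6 genes with a window, nor before the 2 other listed LMNA starts. Any LMNA start that is not listed was not searched, and which start these cells used was not tested.

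LBR rose. The gene (ENSG00000143815.10, chromosome 1, 225589204 to 225616627, minus strand) encodes a membrane protein with a nucleoplasmic part that binds lamin B and heterochromatin and a membrane part that works as a sterol reductase. Its level was 31.98, 35.9 and 34.6 RPM in control replicates 1, 2 and 3 and 43.3, 40.8 and 41.0 RPM in knockdown replicates 1, 2 and 3. No knockdown library reached down to the controls. The means were 34.2 ± 2.0 and 41.7 ± 1.4 RPM (SD, n = 3), and the log2 fold change was 0.29 (SE 0.06; adjusted p = 0.0025, limma). The call held in all 21 alternative fits, with values from 0.21 to 0.33.

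Its relatives in sterol synthesis went the other way. TM7SF2, the sterol reductase that shares the enzymatic step of LBR, fell from 17.9 ± 1.7 to 5.96 ± 0.61 RPM (SD, n = 3), at a log2 fold change of -1.59 (limma, adjusted p = 9.1e-07). DHCR7, which makes the last reduction to cholesterol, fell from 118.2 ± 0.9 to 88.5 ± 3.2 RPM, or -0.42 on the log2 scale (limma, adjusted p = 3.3e-05). For both, every knockdown library was below every control. The longest transcripts of TM7SF2 and DHCR7 are 64.2% and 58.3% G or C, against 37.8% for LBR. After the GC and length correction TM7SF2 was at -1.38 and DHCR7 at -0.31 (limma adjusted p = 8.8e-09 and 8.9e-05). A difference in response between LBR and these relatives was not itself tested.

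The only listed LBR window is poor in G and C, at 36.8%, where the median of all windows is 58.0%. It holds 1 AP-1 match, in capitals, as 6.57% of all windows do.

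LBR (chr1:225428822-225429071, minus strand): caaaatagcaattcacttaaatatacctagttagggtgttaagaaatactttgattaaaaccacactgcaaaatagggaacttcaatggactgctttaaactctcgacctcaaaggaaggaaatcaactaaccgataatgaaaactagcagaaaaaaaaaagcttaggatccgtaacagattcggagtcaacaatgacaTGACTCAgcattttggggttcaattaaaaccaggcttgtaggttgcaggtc

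No AP-1 match of these letters was found in the windows of HMGA1, HMGB1, HMGB3, LMNA, LMNB1 or LMNB2.

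Of the HMGB genes, HMGB1 rose by a small amount and the others did not pass the test. HMGB1 (ENSG00000189403.10, chromosome 13, 31032884 to 31191734, minus strand) stood at 107, 121 and 122 RPM in controls and 139, 129.99 and 130.5 RPM in knockdowns, with every knockdown library above every control. The means were 116 ± 8 and 133 ± 5 RPM (SD, n = 3), and the difference was 0.20 on the log2 scale (SE 0.06; adjusted p = 0.017, limma). The call was lost without knockdown replicate 1 (0.16, limma adjusted p = 0.0601), without an intensity trend in the variance model (0.20, 0.081), and after the GC and length correction (0.09, 0.092).

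HMGB1 is also the member whose reads are least certain, because the genome holds many processed copies of it. The table lists 42 HMGB1 pseudogenes, 24 of them with reads, and these held 71.8% to 89.5% as many reads as HMGB1 itself, depending on the library. Counting gene and copies together gave 197, 227 and 227 RPM in controls and 239, 232 and 247 RPM in knockdowns, still without overlap but with a narrower gap. For HMGB3 the copies held 21.4% to 25.2% of the parent's reads, for HMGA1 14.2% to 16.5% and for HMGB2 4.04% to 6.58%. HMGA1 with its 8 copies went from 2334 ± 68 to 1388 ± 23 RPM (SD, n = 3). No copies named after HMGA2, LBR or a lamin are listed.

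HMGB2 (ENSG00000164104.7, chromosome 4, 174252846 to 174256276, minus strand), which marks dividing cells and keeps secretory genes open in senescence, stood at 11.2, 14.1 and 12.8 RPM in controls and 12.4, 11.01 and 11.5 RPM in knockdowns. The 95% interval of its log2 fold change was -0.32 to 0.09 (adjusted p = 0.351, limma). HMGB3 (ENSG00000029993.10, chromosome X, 150148982 to 150159248, plus strand), an embryonic and progenitor-cell paralogue, stood at 19.4, 23.6 and 24.7 RPM in controls and 23.8, 21.8 and 25.1 RPM in knockdowns. Its 95% interval was -0.14 to 0.27 (limma, adjusted p = 0.594). For both genes the groups overlapped.

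Relative to HMGB1, HMGB2 was lower in every knockdown library. The log2 ratio was -3.26, -3.10 and -3.25 in the controls and -3.49, -3.56 and -3.50 in the knockdowns, a mean difference of -0.31 (exact permutation test, two-sided p = 0.1; 0.125 adjusted over the 5 ratios). The HMGB3 to HMGB1 ratio overlapped between the groups, with a mean difference of -0.13 (exact permutation test, p = 0.2; 0.2 adjusted). The GC and length correction lowered the size of both, to -0.17 and -0.06.

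HMGB1 and HMGB3 are shown together because their first listed windows each hold 3 CCAAT boxes, in capitals, as 2.93% of all windows do or exceed.

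HMGB1 (chr13:30465937-30466186, minus strand): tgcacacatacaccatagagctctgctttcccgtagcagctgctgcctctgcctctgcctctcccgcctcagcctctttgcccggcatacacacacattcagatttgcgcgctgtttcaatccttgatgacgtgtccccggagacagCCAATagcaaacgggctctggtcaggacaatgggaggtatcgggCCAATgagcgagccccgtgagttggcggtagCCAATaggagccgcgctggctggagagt
HMGB3 (chrX:150983085-150983334, plus strand): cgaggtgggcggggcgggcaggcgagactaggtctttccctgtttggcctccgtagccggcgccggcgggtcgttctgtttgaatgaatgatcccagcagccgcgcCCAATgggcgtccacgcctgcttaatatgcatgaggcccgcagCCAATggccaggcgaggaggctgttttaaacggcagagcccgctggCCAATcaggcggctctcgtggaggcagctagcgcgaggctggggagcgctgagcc

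HMGB1 passed the test and HMGB3 did not, and a difference between their fold changes was tested only through the ratio above. The windows before the other listed HMGB1 starts hold 1 and 0 CCAAT boxes.

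Libraries of the same group were not alike in the levels of the members. Control replicate 1 was the lowest control for HMGB1, HMGB2, HMGB3, LMNB1 and LBR and the highest for HMGA1, HMGA2 and LMNA. Among knockdowns, replicate 2 was the lowest for the same 5 genes. A list of 23 proliferation genes had mean log2 levels, centred on each gene's average over the 6 libraries, of 0.02, 0.36 and 0.33 in control replicates 1, 2 and 3 and -0.23, -0.32 and -0.17 in the knockdowns. Control replicate 1 and knockdown replicate 2 were thus the lowest of their groups in proliferation genes too. Without control replicate 1 the log2 fold change was -0.20 for HMGB2 (limma adjusted p = 0.089), -0.059 for LMNB1 and -0.037 for HMGB3. HMGB1 and LBR stayed higher without it, at 0.14 and 0.24. Leaving out knockdown replicate 2 instead moved the first 3 genes the other way. HMGB2 was then at -0.077 (limma adjusted p = 0.604), LMNB1 at 0.119 and HMGB3 at 0.123. The part of proliferation level in these values was not tested.

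Between the groups, 19 of the 23 proliferation genes fell and 1 rose, with a median log2 fold change of -0.56 against -0.04 for all genes. Over all genes tested, 23.5% were called lower and 17.5% higher. E2F1, which drives entry into S phase, fell the most at -1.08 (8.99 ± 0.70 to 4.23 ± 0.03 RPM; SD, n = 3; limma adjusted p = 8.9e-06). TYMS, the thymidylate synthase of DNA precursor supply, was the one that rose, by 0.61 (limma adjusted p = 6.3e-05). LMNB1, HMGB2 and HMGB3 had log2 fold changes of 0.03, -0.12 and 0.07 in the same libraries, and HMGB1 and LBR had 0.20 and 0.29.

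The direction of the members ran with the base composition of their transcripts. The longest transcripts of HMGA1, LMNA and LMNB2, which fell, are 61.3%, 61.5% and 61.4% G or C, while those of HMGB1 and LBR, which rose, are 37.9% and 37.8%. HMGB3, HMGB2 and LMNB1 lie between at 44.0%, 49.8% and 51.1%, and HMGA2 is at 38.8%. Over all genes tested, the 1590 genes between 59% and 63% had a median log2 fold change of -0.16, with 34.9% called lower and 9.56% higher. The 2336 genes between 36% and 40% had a median of 0.06, with 13.8% called lower and 26.9% higher. After a correction for GC content and transcript length within each library, HMGA1 was at -0.58 (limma adjusted p = 1.2e-06), LMNA at -0.41 (9.5e-07) and LBR at 0.21 (0.0025). HMGA2 turned to -0.065 (limma adjusted p = 0.208). The cause of the trend with base composition was not tested.

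**Figure D3:**
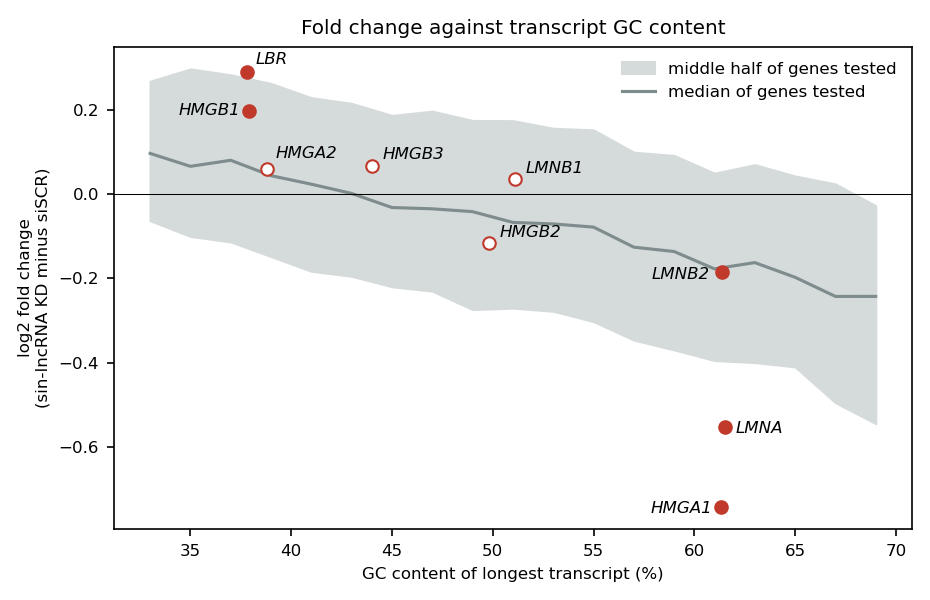
Log2 fold change of knockdown over control (vertical axis) against GC content of the longest transcript (percent, horizontal axis). The grey line and band are the median and middle 50% of all genes tested in steps of GC content, filled points are members that passed the test and open points members that did not. LMNB2 lies close to the median for its GC content, while HMGA1 and LMNA lie below the band at their GC content of about 61%.

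**Figure D4:**
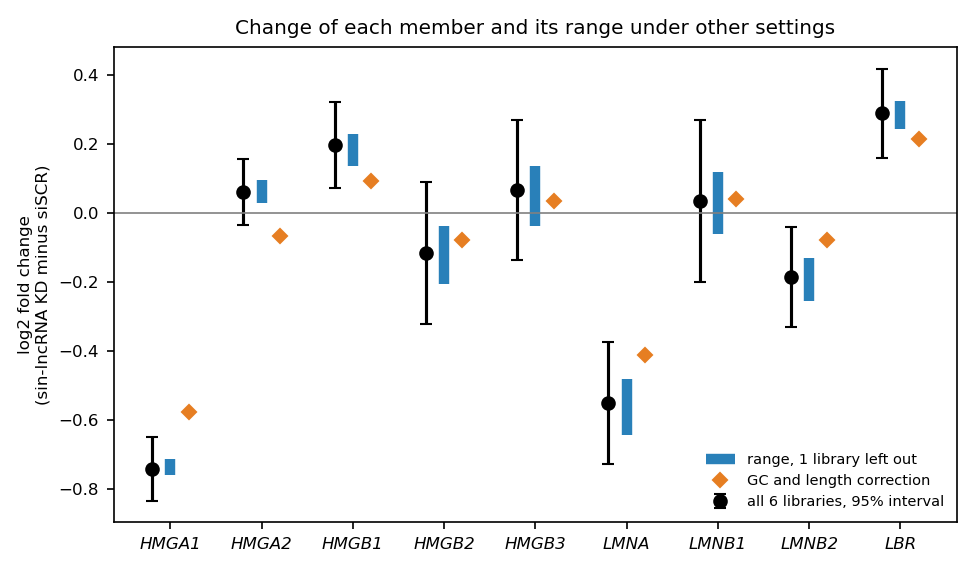
Log2 fold change of each member (vertical axis) from all 6 libraries with its 95% interval (black), its range when 1 library is left out (blue) and its value after correction for GC content and length (orange). HMGA1, LMNA, LMNB2, HMGB1 and LBR keep their side of 0 in all of these, and the 95% intervals of HMGA2, HMGB2, HMGB3 and LMNB1 include 0.

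By level per kilobase of exon, the control order was HMGA1 at 867 ± 29 RPKM, LMNA at 79.7 ± 9.0, HMGA2 at 70.0 ± 0.5, LMNB2 at 27.5 ± 2.2, HMGB1 at 15.1 ± 1.1, LBR at 6.497 ± 0.38, HMGB3 at 5.69 ± 0.71, HMGB2 at 4.57 ± 0.52 and LMNB1 at 3.41 ± 0.37 (SD, n = 3). LMNA and HMGA2, LBR and HMGB3, and HMGB3 and HMGB2 are close neighbours, and no difference within these pairs was tested. By exon length, HMGB3 held 21.5%, 22.3% and 23.4% of HMGB RPKM in control replicates 1, 2 and 3. HMGB2 held 17.7%, 19.0% and 17.3%. With the longest transcript as the length, HMGB2 stood above HMGB3, and HMGA2 was at 133 RPKM against 175 for LMNA, so the length used sets part of the order. In the knockdowns LMNA, at 54.3 ± 4.4 RPKM by exon length, was below HMGA2 at 73.1 ± 3.4. By longest transcript HMGA2 also stood above LMNA there, at 139 against 119 RPKM.

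The rest of the nuclear envelope changed in both directions. Counts for this list and the lists below are read against all genes tested, of which 17.5% were called higher and 23.5% lower. Of 18 envelope genes, 5 rose, 6 fell and 7 did not pass the test, with a median log2 fold change of -0.04, equal to that of all genes. The largest fall was in NRM, which encodes nurim, a membrane protein of the envelope, from 13.4 ± 0.3 to 7.47 ± 0.15 RPM (SD, n = 3; log2 fold change -0.84; limma adjusted p = 8.4e-06). TMPO, which encodes the lamin-binding LAP2 proteins, fell by 0.67 on the log2 scale, and SYNE3, a nesprin of the outer membrane, by 0.65. TMEM201, LEMD2 and EMD, the gene of emerin, also fell. SYNE1, which encodes the giant nesprin that links the nucleus to actin, rose most, from 78.8 ± 7.4 to 109.7 ± 4.2 RPM (log2 fold change 0.48; limma adjusted p = 0.00018). ANKLE2, LEMD3, SUN1 and TMEM43 rose by 0.16 to 0.28.

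Of the 5 enzymes that process prenylated lamins, ICMT, the methyltransferase, fell by 0.23 on the log2 scale and ZMPSTE24, the protease that matures prelamin A, fell by 0.17 (limma adjusted p = 0.0011 and 0.019). The farnesyltransferase genes FNTA and FNTB and the protease RCE1 did not pass the test, at -0.06, 0.20 and 0.21. After the GC and length correction all 5 passed it, with FNTB and RCE1 higher and the other 3 lower. Without control replicate 3, knockdown replicate 2 or knockdown replicate 3, 1 of the 5 passed.

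Of 29 nuclear pore genes tested, 13 fell and 2 rose, with a median of -0.13. NUP188, a scaffold nucleoporin, fell most, from 156 ± 8 to 113 ± 4 RPM (SD, n = 3; log2 fold change -0.47; limma adjusted p = 3.1e-05). The 2 that rose were TPR, the nuclear basket protein, at 0.14, and RANBP2, of the cytoplasmic filaments, at 0.15. After the GC and length correction both were near 0, at 0.01 each, and 17 pore genes were lower. In place of 15 pore genes, 6 passed without control replicate 3 and 9 without knockdown replicate 3.

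Among 14 genes of the heterochromatin foci that HMGA proteins help to build, 3 rose, 2 fell and 9 did not pass the test, with a median of -0.03. Over all genes tested, 41.0% passed, so this count is not above that background. CBX1 rose by 0.32 and CBX5 fell by 0.36 on the log2 scale (limma adjusted p = 0.00016 and 0.00089), although both encode heterochromatin protein 1 isoforms and CBX5 is a binding partner of LBR. HIRA, a histone chaperone, and RB1, the retinoblastoma gene, rose by 0.24 and 0.25. SUV39H1, the methyltransferase that marks heterochromatin, fell by 0.38. The macroH2A genes, listed in the table as H2AFY and H2AFY2, were at -0.04 and -0.05 and did not pass. In place of 5 genes, 3 passed without control replicate 3 or without knockdown replicate 2.

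Of 12 other HMG genes tested, 4 rose and 3 fell, with a median of 0.00. HMGN3, a nucleosome-binding HMG protein, rose most, from 13.2 ± 0.6 to 17.0 ± 0.4 RPM (SD, n = 3; log2 fold change 0.37; limma adjusted p = 0.0014). TFAM, the HMG-box protein that packages mitochondrial DNA, and HMGXB4 rose by 0.29 and 0.26. HMGXB3 fell most, by 0.35 on the log2 scale, HMGN1 fell by 0.22 and SSRP1, a subunit of the FACT histone chaperone, fell by 0.16.

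Among 7 receptors and partners of extracellular HMGB1, 4 were tested. AGER, the receptor RAGE, rose from 0.990 ± 0.082 to 1.83 ± 0.38 RPM (SD, n = 3; log2 fold change 0.86; limma adjusted p = 0.0053), on only 27 to 56 reads per library. THBD, encoding thrombomodulin, which binds HMGB1, fell from 11.7 ± 0.7 to 8.42 ± 0.77 RPM (log2 fold change -0.47; limma adjusted p = 0.0017). CXCL12 and HAVCR2 did not pass, and TLR2, TLR4 and CXCR4 had too few reads to be tested.

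**Figure D5:**
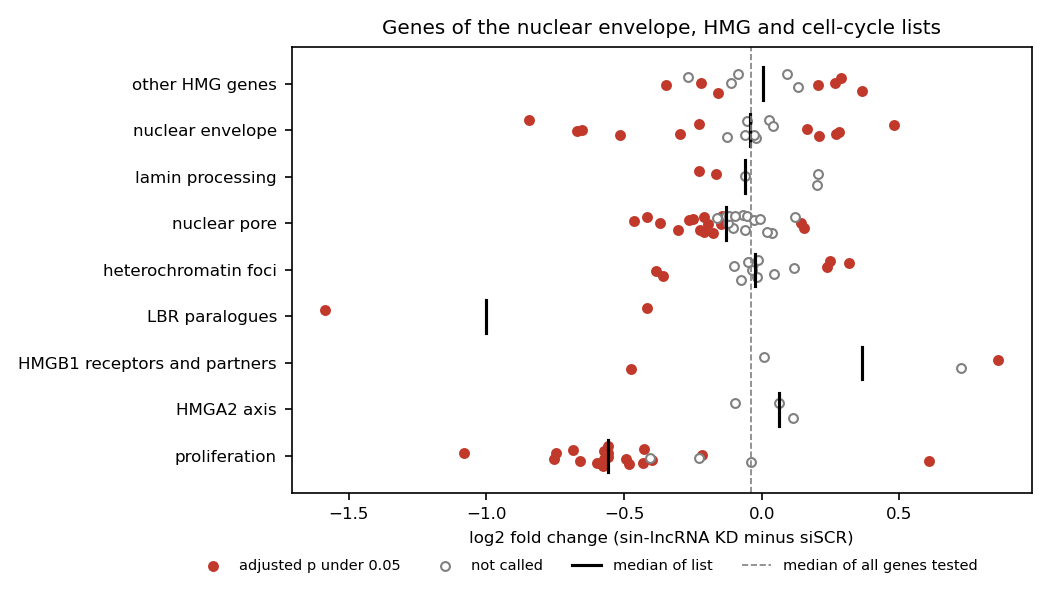
Log2 fold change of knockdown over control (horizontal axis) for the genes tested in 9 lists (rows); filled points passed the test, open points did not, black bars are list medians and the dashed line is the median of all genes tested. Proliferation genes sit to the left with a median of -0.56, and the envelope and heterochromatin lists spread to both sides of the dashed line.

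Genes with the library profile most like each changed member were found by the root mean square distance between log2 values centred over the 6 libraries, among 15115 genes with a mean of at least 50 normalized reads. The nearest to HMGA1 were EIF5A (distance 0.0118 on the log2 scale) and COL1A2 (0.0173), and the nearest to LMNA were STX10 (0.0226) and PPP1R12C (0.0305). The nearest to LBR were NFYA (0.0137) and FAM103A1 (0.0200). Those nearest to HMGB1 were SLTM (0.0142) and BAZ1A (0.0213), and those nearest to LMNB2 were RPL13AP5 (0.0224) and DEDD2 (0.0256). EIF5A, a translation factor, had a log2 fold change of -0.75 beside -0.74 for HMGA1, and COL1A2, a chain of type I collagen, one of -0.77. Because these genes were picked by their profile over the same 6 libraries, a similar fold change follows from the choice. It is no sign of shared regulation.

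Several members overlap other genes in the table's coordinates. HMGA2 overlaps 4 genes on the opposite strand, of which RPSAP52 fell by 0.57 on the log2 scale (limma adjusted p = 0.0092), and these hold at most 62.9 normalized reads per library on average, against at least 26158 reads for HMGA2 in any library. LBR and HMGB1 overlap genes with at most 53.3 normalized reads on average. No listed gene overlaps HMGA1, LMNA, LMNB1, HMGB2 or HMGB3.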

How the data were processed

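PolyA RNA from 6 libraries (3 siSCR, 3 sin-lncRNA knockdown) was analysed from 1 deposited table. Per the submitters' processing notes, reads were aligned to hg19 with Bowtie2 and counted per gene with featureCounts; versions, strand setting and treatment of multiply mapped reads are not given in the sources used here. The authors deposited log2 values. Their form was found from the values: log2 of reads plus 0.5 per 1000000 of an effective library size. Undoing this gave whole numbers (within 0.01) for 100% of values in every library. Columns were assigned to samples from the siRNA name and replicate number they carry; knockdown columns also end in si1.3, which the labels leave unexplained.

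limma 3.58.1 (R 4.3.3; lmFit, eBayes with intensity trend, group as sole term, two-sided) was fitted to the deposited log2 values of the 19048 genes with a mean of at least 10 normalized reads, with Benjamini-Hochberg adjustment over all of them and a threshold of 0.05. The fit was tested on simulated counts with few changed genes, a fixed spread and no GC trend. Those settings differ from the data, so that test does not vouch for the calls here. Fold changes include the 0.5-read offset. Family ratios used exact permutation tests. GC content and lengths came from GENCODE 29, with values for 97.4% of genes tested; promoters and miRNAs came from RefSeq (GRCh38.p14), and no coordinates were converted. Named genes were all 9 members, the largest called change in each direction of 9 context lists and any gene behind a count of 5 or fewer, and the 2 nearest profiles of each changed member; other list genes named were chosen after their values were seen. One gene counted among the other HMG genes is not reported by name here. Members and lists were chosen with earlier results of these data known. Same-numbered libraries did not deviate together (r = -0.15, -0.18 and 0.07), so the number was not used as a pair. Depth is given in the report; floors of 3 reads hold for counting error alone, because reads copied by PCR are not separate molecules.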

Additional observations from a re-analysis of the deposited data

How the results depend on the processing

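HMGA1, LMNA and LBR kept their direction and call in all 21 alternative fits, and no family ratio reversed in its 12. HMGA2 was -0.065 after the GC and length correction, with or without the block; HMGB3 was -0.037 without siSCR replicate 1, with a range of -0.037 to 0.14 over libraries left out, and LMNB1 was -0.059 without it and -0.053 without knockdown replicate 3, with a range of -0.059 to 0.12; the cause was not tested. At an adjusted p under 0.01, 5195 genes passed, and with 1 library left out 5803 to 7330. The count of members was 3 without the intensity trend, after the GC and length correction, under the replicate block with and without it, and at 0.01; with 1 library left out it was 3 to 5. Of other HMG genes 4 passed without the trend and at 0.01. Of lamin processing genes 1 passed without the trend, under the replicate block and at 0.01, 5 after the GC and length correction with or without the block, and 1 to 3 with 1 library left out. Of nuclear pore genes 8 passed without the trend and under the replicate block, 6 at 0.01, and 6 to 14 with 1 library left out. Of heterochromatin genes 3 passed at 0.01, and 3 to 5 with 1 library left out. Of HMGB1 receptors 1 passed when a mean of at least 50 reads was required, since AGER was then not tested. Of the HMGA2 axis 1 passed with that filter, scaled to library totals, by the median of ratios or by quantiles, with voom, and after the GC and length correction with or without the block. Same-numbered libraries share only a number; the replicate block called 6454 genes, and HMGB1 (limma adjusted p = 0.058) and LMNB2 (0.089) did not pass under it. LMNB1 and HMGB2 rest on 258 to 662 reads per library, which limits their precision.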
